A study of Mus musculus with 15 samples.

Results

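The genes described here are 40 chaperones, folding enzymes, degradation factors and stress sensors of the endoplasmic reticulum (ER), of which 39 were measured in mouse liver after gastric bypass, out of 22180 genes in all. They were taken from a named list, chosen with earlier results of these data known. Each was read through the 1 transcript cluster (the array's unit of measurement for a gene) that carried its symbol alone, or the brightest such cluster over the 15 arrays where there was more than 1. Pdia4, a disulfide isomerase, was left out because its cluster carries several symbols. The measured genes were 17 chaperones, 8 of 9 listed disulfide enzymes, 10 genes of ER-associated degradation and 4 sensors. The sensor list counts Xbp1, which encodes a transcription factor, beside the sensor genes Ern1, Atf6 and Eif2ak3. Liver RNA came from male ApoE*3Leiden.CETP mice, which carry human APOE*3-Leiden and CETP transgenes that give them a human-like lipoprotein profile, and every group shared this genotype and a diet with 60% fat and 0.25% cholesterol. The 6 RYGB mice had Roux-en-Y gastric bypass, an operation that reroutes the stomach and small bowel. The 4 BWm mice had sham surgery with body weight matched to that of RYGB mice, and the 5 Sham AL mice had sham surgery with free access to food. Mice were 9 to 12 weeks old at the start, ate the diet for 6 weeks before surgery, were housed singly after it, had an oral glucose test on day 13 and an insulin test on day 19 and were killed on day 20. The sources used here do not say how weights were matched or whether the mice had eaten before death.

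Proteins that a cell secretes or puts in its membranes are folded in the ER, and hepatocytes, which make most plasma proteins, hold much of this machinery. Chaperones such as BiP, the product of Hspa5, bind unfolded chains, disulfide enzymes join their cysteines, and chains that fail are drawn back to the cytosol and degraded. When unfolded protein accumulates, the sensors IRE1 (Ern1), ATF6 and PERK (Eif2ak3) start the unfolded protein response, in which spliced XBP1 and cleaved ATF6 switch on chaperone and degradation genes while PERK slows translation and raises ATF4.

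Promoters of several of these genes carry known ER stress elements, which are shown first because such elements are a sequence feature that the choice of genes did not use. RefSeq promoter windows, from 250 bases before to 50 after the annotated start on GRCm38.p6, were found for 34 of the 39 members. Both strands were searched for the ER stress element ERSE (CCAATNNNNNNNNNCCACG), for ERSE-II (ATTGGNCCACG), for the XBP1 core element UPRE (TGACGTGG) and for the short core CCACG, which lies inside ERSE and ERSE-II and, on the opposite strand, inside UPRE. ERSE was found in 10 members, 29.4% of those with a window, and in 37 of 27025 genes with a window, or 0.137%. ERSE-II was found in Dnajb11 and Herpud1 (0.0444% of all genes), UPRE in Txndc5 and Txndc11 (0.714%), and the short core in 29 members (85.3%, against 35.5% of all genes). ERSE was first defined from promoters of ER chaperone genes, so its share among them is not independent evidence. A match is a description of letters, not a measured binding site. The stretches below run 5′ to 3′ on the strand of the gene, with the element in capitals. They cover the BiP and GRP94 (Hsp90b1) promoters, 1 or more genes of each of the 3 larger roles, and Derl3 and Herpud1, which hold an element and did not pass the test in any comparison.
Hspa5, ERSE, chr2:34772005-34772063, plus strand: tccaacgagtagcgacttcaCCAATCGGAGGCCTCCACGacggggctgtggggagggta
Hsp90b1, ERSE, chr10:86705618-86705676, minus strand: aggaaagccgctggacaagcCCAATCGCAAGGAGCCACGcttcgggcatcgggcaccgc
Hsp90b1, ERSE read on the opposite strand, chr10:86705513-86705571, minus strand: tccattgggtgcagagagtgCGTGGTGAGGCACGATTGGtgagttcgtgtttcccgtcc
Creld2, ERSE read on the opposite strand, chr15:88819500-88819558, plus strand: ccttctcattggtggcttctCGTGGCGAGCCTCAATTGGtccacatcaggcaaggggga
Pdia6, ERSE, chr12:17266471-17266529, plus strand: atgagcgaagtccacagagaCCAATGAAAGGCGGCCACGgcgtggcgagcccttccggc
Ero1b, ERSE read on the opposite strand, chr13:12565662-12565720, plus strand: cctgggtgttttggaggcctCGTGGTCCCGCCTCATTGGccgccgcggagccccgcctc
Syvn1, ERSE, chr19:6046512-6046570, plus strand: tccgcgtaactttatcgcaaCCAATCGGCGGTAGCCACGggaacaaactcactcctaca
Derl3, ERSE read on the opposite strand, chr10:75893222-75893280, plus strand: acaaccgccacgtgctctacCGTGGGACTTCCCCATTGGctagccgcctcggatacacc
Herpud1, ERSE-II, chr8:94386357-94386407, plus strand: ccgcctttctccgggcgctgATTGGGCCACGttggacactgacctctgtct
Txndc11, UPRE, chr16:11134607-11134654, minus strand: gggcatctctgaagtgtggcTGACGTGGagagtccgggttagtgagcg

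**Figure D1:**
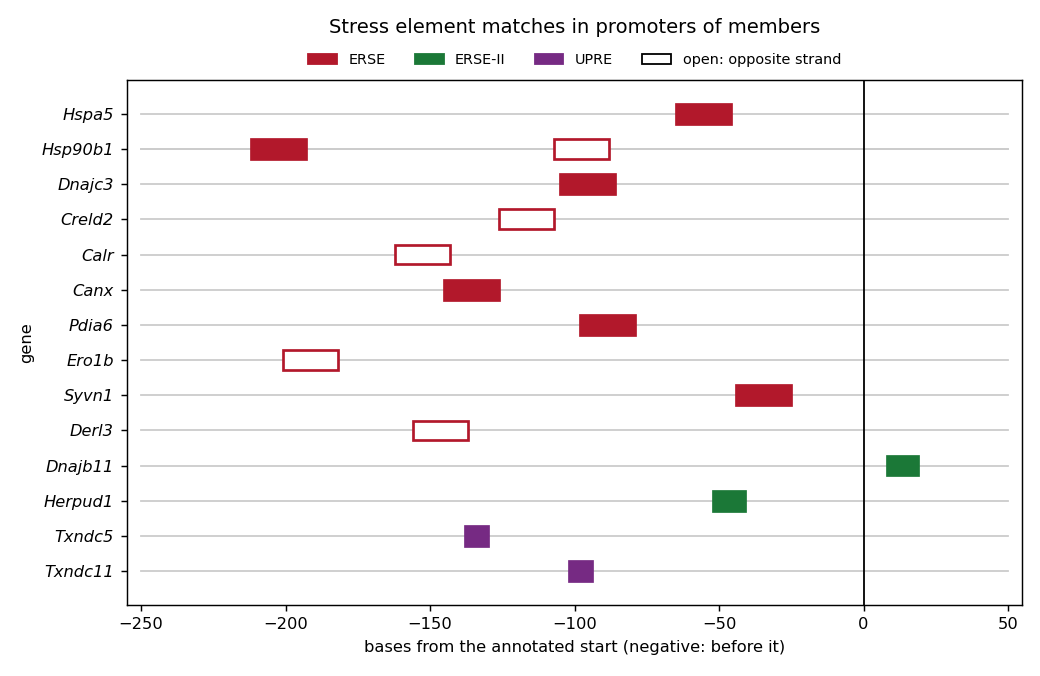
Positions of ERSE, ERSE-II and UPRE matches in the promoter windows of the 14 members that hold one, in bases from the annotated start (horizontal axis; the vertical line is the start). Filled boxes read on the strand of the gene and open boxes on the opposite strand. Hsp90b1 holds 2 ERSE matches, and the ERSE-II match of Dnajb11 lies after the start.

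ERSE matches began between 44 bases (Syvn1) and 212 bases (Hsp90b1) before the annotated start. Hspa5 held its match 65 bases before the start, Pdia6 98 bases and Creld2 126 bases before it. In Creld2, Calr, Ero1b and Derl3 the element read on the opposite strand only.

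Each mouse gave 1 array. The deposited values are log2 signals with array medians from 3.89 to 4.02 over all clusters and from 4.45 to 4.6 over the genes used. Markers below are compared with the array median over genes. The gene values of any 2 arrays correlated at 0.967 to 0.991 (Pearson's r across genes). Nothing in the labels states a batch. All 10 hepatocyte markers were measured, with a mean log2 signal of 10.82 to 11.14 in RYGB livers, 11.10 to 11.25 in BWm livers and 10.87 to 11.14 in Sham AL livers. Their summed linear signal was 35400 to 40100, 40500 to 41700 and 36700 to 39300 in the same order. In RYGB against BWm 9 had log2 differences under 0 (median -0.19, 3 with an unadjusted p under 0.05) and 0 were called. In BWm against Sham AL 8 were above 0 (median 0.13, 2 with an unadjusted p under 0.05) and 1 was called. The median in RYGB against Sham AL was -0.01. Plasma cells and pancreatic acinar cells are also rich in ER, so their markers were read as lists. Of 8 measured plasma cell markers 0 passed the test in any comparison (1, 0 and 1 had an unadjusted p under 0.05 in RYGB against Sham AL, RYGB against BWm and BWm against Sham AL), their summed linear signal was 320 to 502 in RYGB, 299 to 387 in BWm and 274 to 417 in Sham AL livers, and Jchain, Tnfrsf17, Pou2af1 and Irf4 lay below the array median on all 15 arrays. Of 8 measured acinar markers the sums were 97.2 to 119, 77.1 to 102 and 94.5 to 111 in the same order of groups, 6 (Cpa1, Cpb1, Prss2, Amy2b, Cel, Ptf1a) lay below the array median throughout, and 1, the transcription factor gene Bhlha15, was higher in RYGB than in BWm livers (log2 0.86 ± 0.16, adjusted p = 0.0029; chosen after its value was seen). Of 10 endothelial markers 4 were lower in RYGB than in BWm livers (7 with an unadjusted p under 0.05, median log2 difference -0.45), with summed signals of 1860 to 2740 in RYGB, 2900 to 3310 in BWm and 2320 to 2890 in Sham AL livers, and 1 was higher in BWm than in Sham AL livers (5 with an unadjusted p under 0.05, median 0.29). Of 10 Kupffer cell markers 1 was called, higher in RYGB than in Sham AL livers, with sums of 2490 to 3690 in RYGB, 2110 to 3100 in BWm and 2240 to 3040 in Sham AL livers. All 10 had log2 differences above 0 in RYGB against Sham AL (median 0.35, 6 with an unadjusted p under 0.05) and in RYGB against BWm (median 0.30, 5 with an unadjusted p under 0.05), and in BWm against Sham AL their median was 0.02. The part of these cells in the results was not tested. Sham AL replicate 4 stood apart in genes of other tissues, with 10.37 for Cyp11b1 of the adrenal cortex and 11.89 for Ucp1 of brown fat, against 2.39 to 3.10 and 3.51 to 4.54 on the other Sham AL arrays.

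Most of these ER genes, 31 of 39, had their highest mean in RYGB livers and their lowest in BWm livers. Fold changes are log2 differences of group means with their standard error (SE) from 1 limma fit over all genes, and a gene is called where its two-sided Benjamini-Hochberg adjusted p over the 22180 genes is under 0.05. Rose and fell mean higher and lower than in the group compared. Because the list was chosen with earlier results of these data known, its excess over the share of all genes is not independent evidence. Against BWm livers, 28 of the 39 members rose in RYGB livers and 0 fell, where 4.02% of all genes rose and 2.34% fell. Against Sham AL livers, 9 rose and 0 fell, where 0.938% of all genes rose and 0.442% fell. In BWm against Sham AL livers, 13 members fell and 0 rose, where 1.3% of all genes fell and 1.53% rose (289 and 340 genes). With array medians subtracted those gene counts were 183 and 440, and 9 members fell. The BWm against Sham AL contrast equals the difference between the bypass effects against the 2 sham groups, so for those 13 genes the difference after bypass was larger against BWm than against Sham AL by a test. In whole liver, fewer cells of a type and less RNA per cell cannot be told apart.

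The median log2 difference over the 39 members was 0.66 in RYGB against BWm, 0.29 in RYGB against Sham AL and -0.32 in BWm against Sham AL, where the medians over all genes lay between -0.01 and 0.00. Differences were above 0 for 38, 37 and 6 members in that order. All RYGB values lay above all BWm values for 28 members (4.71% of all genes) and above all Sham AL values for 14 (1.58%), and all BWm values lay below all Sham AL values for 15 (3.39%). Group means ran RYGB, Sham AL, BWm from high to low for 31 of 39 members and for 19.7% of all genes. The 28 calls against BWm remained without any 1 of the 15 arrays. The 9 calls against Sham AL were less stable, and only Fkbp11 and Creld2 kept theirs in every such fit. Their number was 4 without RYGB replicate 2 or 4, 5 without RYGB replicate 3 or 6, 3 without Sham AL replicate 2 or 3, and 5 without Sham AL replicate 4, where the counts against BWm and between the sham groups were 28 and 13. Of the 13 genes lower in BWm than in Sham AL livers, 8 kept their call without any 1 array, and the number was 8 without BWm replicate 2 or 3. The call ended for Calr without BWm replicate 2 or 3 (largest adjusted p = 0.057). For Hsp90b1 (0.095), Pdia3 (0.11) and Ero1b (0.1) it ended without BWm replicate 2, 3 or 4 or Sham AL replicate 2 or 5, for Pdia3 also without Sham AL replicate 3 and for Ero1b without Sham AL replicate 1. Leaving out BWm replicate 1 added calls for Creld2 and Txndc5 (smallest adjusted p = 0.0089 and 0.012), the second also called without Sham AL replicate 4.

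**Figure D2:**
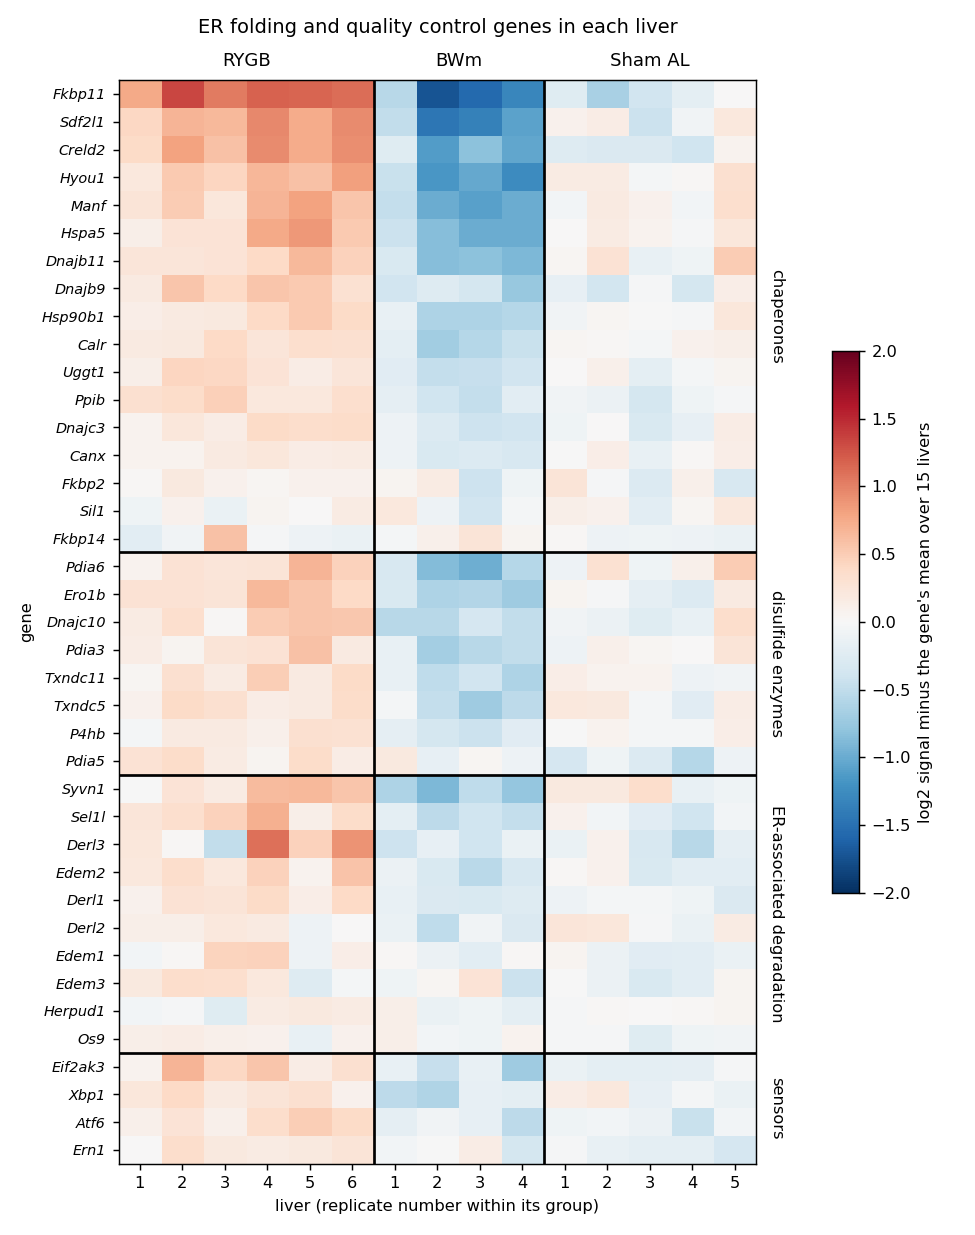
Log2 signal of each of the 39 genes in each liver minus the gene's mean over 15 livers (colour), with RYGB, BWm and Sham AL livers in columns and genes in rows grouped by role. Chaperone and disulfide enzyme rows are mostly red in the 6 RYGB columns and blue in the 4 BWm columns, and BWm replicate 1 is the palest of its group.

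Among chaperones, 14 of 17 rose in RYGB against BWm livers, 5 rose against Sham AL livers, and 8 fell in BWm against Sham AL livers. Hspa5, which encodes BiP itself, had a lowest, median and highest log2 signal of 9.08, 9.35 and 9.82 in RYGB livers, against 8.53, 8.11, 7.97 and 7.97 in BWm livers and 8.97, 9.12, 9.03, 8.94 and 9.19 in Sham AL livers. No BWm liver reached the lowest liver of the other groups, while 1 RYGB liver lay within the Sham AL range. The difference was log2 1.28 ± 0.15 (2.43-fold, adjusted p = 7.4e-05) in RYGB against BWm and log2 -0.90 ± 0.15 (1.87-fold lower, adjusted p = 0.0036) in BWm against Sham AL, while RYGB against Sham AL gave log2 0.38 ± 0.14 (adjusted p = 0.23). Hyou1, a large relative of Hsp70 that helps BiP release ADP, had log2 signals of 9.74, 10.08 and 10.34 in RYGB livers, against 9.08, 8.36, 8.50 and 8.26 in BWm livers and 9.69, 9.69, 9.49, 9.55 and 9.85 in Sham AL livers. As for Hspa5, the 4 BWm livers lay below all others. Hyou1 rose by log2 1.51 ± 0.15 (2.86-fold, adjusted p = 1.9e-05) against BWm, was log2 -1.11 ± 0.15 (2.15-fold lower, adjusted p = 0.0013) in BWm against Sham AL, and differed by log2 0.41 ± 0.14 (adjusted p = 0.19) between RYGB and Sham AL. Sil1, the other exchange factor for BiP, was not called anywhere, with means of 8.20 ± 0.11 in RYGB, 8.11 ± 0.24 in BWm and 8.24 ± 0.16 in Sham AL livers (SD, n = 6, 4 and 5).

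The J-domain partners that bring substrates to BiP differed in their calls. Dnajb9 (ERdj4) had log2 signals of 9.40, 9.67 and 9.77 in RYGB livers, against 8.83, 8.96, 8.87 and 8.46 in BWm livers and 9.05, 8.84, 9.19, 8.87 and 9.34 in Sham AL livers. Every RYGB liver lay above every sham liver, and the sham groups overlapped. Dnajb9 rose against both, by log2 0.86 ± 0.13 (1.81-fold, adjusted p = 4.4e-04) against BWm and log2 0.58 ± 0.12 (1.49-fold, adjusted p = 0.018) against Sham AL, and the Sham AL call was lost without RYGB replicate 4 or Sham AL replicate 2 (largest adjusted p = 0.071). Dnajb11 (ERdj3) had log2 signals of 8.30, 8.39 and 8.70 in RYGB, 7.75, 7.20, 7.24 and 7.15 in BWm and 8.09, 8.34, 7.91, 7.97 and 8.56 in Sham AL livers. Here RYGB and Sham AL livers overlapped and BWm livers lay below both, with log2 1.10 ± 0.14 (2.15-fold, adjusted p = 1.8e-04) in RYGB against BWm, log2 -0.84 ± 0.15 (1.79-fold lower, adjusted p = 0.0047) in BWm against Sham AL and log2 0.26 ± 0.14 (adjusted p = 0.45) in RYGB against Sham AL. Sdf2l1, which works in a complex with ERdj3, had log2 signals of 8.79, 9.09 and 9.34 in RYGB, 7.89, 6.93, 7.03 and 7.31 in BWm and 8.46, 8.53, 7.94, 8.31 and 8.59 in Sham AL livers. The 3 groups did not overlap for this gene, which was called in every comparison, at log2 1.82 ± 0.17 (3.54-fold, adjusted p = 1.6e-05) against BWm, log2 0.74 ± 0.16 (1.67-fold, adjusted p = 0.026) against Sham AL and log2 -1.08 ± 0.18 (2.11-fold lower, adjusted p = 0.0029) for BWm against Sham AL. The Sham AL call was lost when any of RYGB replicates 2, 4 and 6 or Sham AL replicates 2 and 3 was omitted (largest adjusted p = 0.074). Dnajc3, a co-chaperone also known as p58IPK, rose against BWm only (log2 0.55 ± 0.11, 1.46-fold, adjusted p = 0.0044), with log2 0.34 ± 0.10 (adjusted p = 0.13) against Sham AL.

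**Figure D3:**
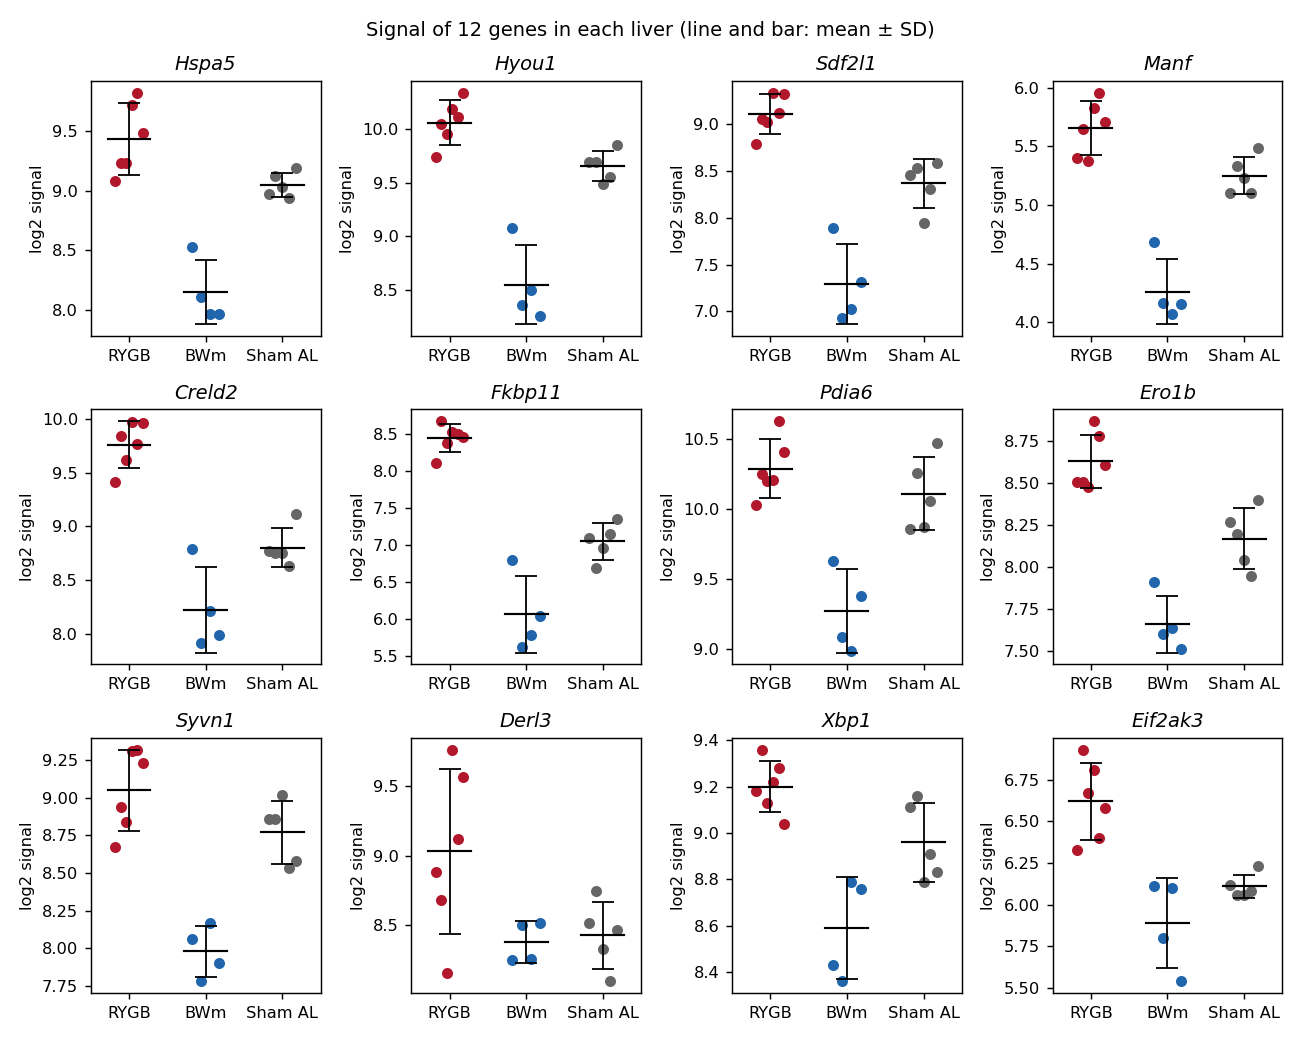
Log2 signal of 12 genes in each RYGB, BWm and Sham AL liver (points), with the group mean and SD as line and bar. BWm livers lie below the other groups for Hspa5, Hyou1, Sdf2l1, Manf, Pdia6, Ero1b and Syvn1, whereas Creld2 and Fkbp11 are set apart first by their RYGB values. Vertical scales differ between panels.

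Hsp90b1, the ER member of the Hsp90 family, had log2 signals of 11.62, 11.78 and 12.01 in RYGB livers, against 11.34, 10.87, 10.87 and 10.91 in BWm livers and 11.42, 11.52, 11.48, 11.46 and 11.72 in Sham AL livers. All BWm livers lay below all others. Its RNA rose by log2 0.79 ± 0.12 (1.73-fold, adjusted p = 4.3e-04) against BWm and was log2 -0.52 ± 0.12 (1.44-fold lower, adjusted p = 0.024) in BWm against Sham AL, with log2 0.27 ± 0.11 (adjusted p = 0.3) in RYGB against Sham AL. BWm replicate 1, at 11.34, lay apart from the other 3 BWm livers. Manf, a stress-induced factor that is kept in the ER by BiP and can be secreted, had log2 signals of 5.38, 5.68 and 5.96 in RYGB, 4.68, 4.16, 4.07 and 4.15 in BWm and 5.10, 5.33, 5.23, 5.10 and 5.49 in Sham AL livers. All BWm livers lay below all Sham AL livers. Manf rose by log2 1.39 ± 0.14 (2.63-fold, adjusted p = 2.7e-05) against BWm, and BWm against Sham AL gave log2 -0.99 ± 0.15 (1.98-fold lower, adjusted p = 0.0018) while RYGB against Sham AL gave log2 0.41 ± 0.13 (adjusted p = 0.17). Its signal is dim, and how far it lies above background is unknown, which leaves the size of its fold change uncertain. Creld2, a secreted protein induced by ER stress, had log2 signals of 9.41, 9.80 and 9.97 in RYGB, 8.79, 7.91, 8.21 and 7.99 in BWm and 8.77, 8.75, 8.75, 8.63 and 9.11 in Sham AL livers. All RYGB livers exceeded all sham livers. Creld2 rose by log2 1.54 ± 0.16 (2.90-fold, adjusted p = 2.7e-05) against BWm and by log2 0.96 ± 0.15 (1.94-fold, adjusted p = 0.0025) against Sham AL, while BWm against Sham AL gave log2 -0.58 ± 0.17 (adjusted p = 0.071).

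The lectin cycle holds glycoproteins in the ER until they are folded. Its calreticulin gene, Calr, had log2 signals of 11.40, 11.51 and 11.63 in RYGB, 11.04, 10.54, 10.65 and 10.79 in BWm and 11.26, 11.25, 11.19, 11.31 and 11.35 in Sham AL livers, without overlap between any groups. Calr rose by log2 0.75 ± 0.10 (1.68-fold, adjusted p = 2.1e-04) against BWm and was log2 -0.52 ± 0.11 (1.43-fold lower, adjusted p = 0.012) in BWm against Sham AL, and RYGB against Sham AL missed the threshold at log2 0.23 ± 0.10 (adjusted p = 0.29). Canx, the membrane-bound relative calnexin, rose by log2 0.40 ± 0.09 (1.32-fold, adjusted p = 0.011) against BWm and was not called otherwise. Uggt1, whose product puts glucose back on misfolded glycoproteins for another round, had log2 signals of 8.04, 8.18 and 8.35 in RYGB, 7.69, 7.44, 7.46 and 7.53 in BWm and 7.93, 8.02, 7.72, 7.88 and 7.97 in Sham AL livers. Its groups did not overlap either, but only RYGB against BWm was called (log2 0.66 ± 0.10, 1.58-fold, adjusted p = 4.7e-04), with log2 0.29 ± 0.09 (adjusted p = 0.16) in RYGB against Sham AL and log2 -0.37 ± 0.10 (adjusted p = 0.061) in BWm against Sham AL.

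Prolyl isomerases of the ER, which speed the turning of bonds before proline, differed widely from each other. Fkbp11 had log2 signals of 8.10, 8.48 and 8.67 in RYGB livers, against 6.79, 5.62, 5.78 and 6.04 in BWm livers and 7.09, 6.69, 6.96, 7.15 and 7.35 in Sham AL livers. The lowest RYGB liver exceeded the highest sham liver, and BWm replicate 1 lay within the Sham AL range while the other 3 BWm livers lay below it. It rose by log2 2.38 ± 0.19 (5.21-fold, adjusted p = 4.1e-06) against BWm and by log2 1.39 ± 0.17 (2.62-fold, adjusted p = 5.2e-04) against Sham AL, and BWm against Sham AL gave log2 -0.99 ± 0.19 (1.99-fold lower, adjusted p = 0.009). No other member differed by as much in either bypass comparison of the fit. Ppib, the ER cyclophilin B, rose by log2 0.64 ± 0.10 (1.56-fold, adjusted p = 6.9e-04) against BWm and log2 0.45 ± 0.09 (1.36-fold, adjusted p = 0.021) against Sham AL, the Sham AL call being lost when RYGB replicate 3 or either of Sham AL replicates 2 and 3 was left out (largest adjusted p = 0.059). Fkbp2 and Fkbp14 were not called. Fkbp2 averaged 9.96 ± 0.06 in RYGB, 9.80 ± 0.25 in BWm and 9.82 ± 0.24 in Sham AL livers, and Fkbp14 averaged 4.96 ± 0.29, 5.04 ± 0.13 and 4.87 ± 0.06 (SD, n = 6, 4 and 5).

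Of 8 disulfide enzymes, 7 rose in RYGB against BWm livers, 2 rose against Sham AL livers and 4 fell in BWm against Sham AL livers. Pdia6, a thioredoxin-fold isomerase that works with BiP, had log2 signals of 10.03, 10.23 and 10.63 in RYGB, 9.63, 9.08, 8.98 and 9.38 in BWm and 9.86, 10.26, 9.87, 10.06 and 10.47 in Sham AL livers. RYGB and Sham AL livers overlapped widely and the BWm livers lay below both. The differences were log2 1.02 ± 0.15 (2.03-fold, adjusted p = 4.5e-04) against BWm, log2 -0.84 ± 0.16 (1.79-fold lower, adjusted p = 0.0071) in BWm against Sham AL and log2 0.18 ± 0.14 (adjusted p = 0.65) in RYGB against Sham AL. Ero1b, one of the oxidases that pass electrons from disulfide isomerases to oxygen, had log2 signals of 8.48, 8.56 and 8.87 in RYGB, 7.91, 7.60, 7.64 and 7.51 in BWm and 8.27, 8.20, 8.04, 7.95 and 8.40 in Sham AL livers, and the 3 groups did not overlap. It was called in every comparison, at log2 0.96 ± 0.12 (1.95-fold, adjusted p = 1.2e-04) against BWm, log2 0.46 ± 0.11 (1.37-fold, adjusted p = 0.049) against Sham AL and log2 -0.51 ± 0.12 (1.42-fold lower, adjusted p = 0.031) in BWm against Sham AL, but its call in RYGB against Sham AL was lost in 12 of the 15 fits without 1 array and held without RYGB replicate 1, BWm replicate 1 or Sham AL replicate 5 (largest adjusted p = 0.13).

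Pdia3 (ERp57), the partner of calnexin and calreticulin, rose by log2 0.72 ± 0.12 (1.65-fold, adjusted p = 0.0012) against BWm and was log2 -0.53 ± 0.13 (1.45-fold lower, adjusted p = 0.028) in BWm against Sham AL. Txndc11 gave log2 0.68 ± 0.11 (1.60-fold, adjusted p = 0.001) and log2 -0.44 ± 0.12 (1.36-fold lower, adjusted p = 0.049) in the same comparisons, the second being lost in 12 of 15 fits without 1 array and held without RYGB replicate 1 or 4 or BWm replicate 1 (largest adjusted p = 0.15). P4hb, protein disulfide isomerase itself, rose against BWm by log2 0.47 ± 0.10 (1.38-fold, adjusted p = 0.0062), Txndc5 by log2 0.68 ± 0.13 (1.61-fold, adjusted p = 0.0027), and Dnajc10, the reductase ERdj5 that opens disulfides of chains bound for degradation, by log2 0.84 ± 0.13 (1.78-fold, adjusted p = 6.4e-04). These 3 were not called against Sham AL, but Dnajc10 was without Sham AL replicate 5 (adjusted p = 0.048). Pdia5 departed from the others. It had log2 signals of 8.0, 8.18 and 8.32 in RYGB livers, against 8.15, 7.78, 7.98 and 7.84 in BWm livers and 7.62, 7.87, 7.68, 7.38 and 7.85 in Sham AL livers, and the BWm livers overlapped both other groups. It rose against Sham AL (log2 0.50 ± 0.11, 1.41-fold, adjusted p = 0.025) and was not called against BWm (log2 0.24 ± 0.12, adjusted p = 0.27) or between the sham groups (log2 0.26 ± 0.12, adjusted p = 0.31). Pdia5 kept its Sham AL call except when RYGB replicate 2 or any of Sham AL replicates 1, 3 and 4 was left out (largest adjusted p = 0.065).

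Of the genes of ER-associated degradation, 4 of 10 were higher in RYGB than in BWm livers, 2 were higher than in Sham AL livers and 1 was lower in BWm than in Sham AL livers. Syvn1, Sel1l and Derl1, 3 of those 4, encode parts or partners of the HRD1 complex, the best-known ubiquitin ligase of this route. Not every gene of that complex was called, as Herpud1 shows below. Syvn1, which encodes HRD1, had log2 signals of 8.67, 9.08 and 9.32 in RYGB, 8.06, 7.78, 8.17 and 7.90 in BWm and 8.86, 8.86, 9.02, 8.53 and 8.58 in Sham AL livers. Each BWm liver lay below every other liver. Syvn1 rose by log2 1.08 ± 0.14 (2.11-fold, adjusted p = 1.9e-04) against BWm and was log2 -0.79 ± 0.15 (1.73-fold lower, adjusted p = 0.0065) in BWm against Sham AL, and RYGB overlapped Sham AL (log2 0.28 ± 0.13, adjusted p = 0.38). Sel1l, the adaptor that holds HRD1 in its complex, had log2 signals of 9.18, 9.41 and 9.78 in RYGB, 8.86, 8.54, 8.67 and 8.58 in BWm and 9.15, 9.01, 8.83, 8.66 and 9.01 in Sham AL livers. All RYGB livers lay above all sham livers, and the sham groups overlapped. Sel1l rose by log2 0.77 ± 0.12 (1.71-fold, adjusted p = 8.5e-04) against BWm and log2 0.51 ± 0.12 (1.42-fold, adjusted p = 0.038) against Sham AL, the second call being lost when any of RYGB replicates 2, 3, 4 and 6 or Sham AL replicates 2 to 5 was omitted (largest adjusted p = 0.091) and with a block for animal number (adjusted p = 0.061).

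Derl1, a derlin of the membrane channel for retrotranslocation, rose by log2 0.51 ± 0.09 (1.43-fold, adjusted p = 0.0026) against BWm and log2 0.37 ± 0.09 (1.29-fold, adjusted p = 0.046) against Sham AL, the Sham AL call being lost in 13 of 15 fits without 1 array and held without RYGB replicate 1 or 5 (largest adjusted p = 0.12). Its relatives were not called in the reported fit. Derl2 gave log2 0.34 ± 0.11 (adjusted p = 0.083) against BWm and log2 -0.01 ± 0.10 (adjusted p = 0.99) against Sham AL. Against BWm, Derl2 was called with the mean of all clusters of a gene. It was also called among genes with a mean of at least 5 in a group (smallest adjusted p in limma = 0.034). Derl3 had the widest RYGB spread among the members, with the 6 livers at 8.88, 8.68, 8.16, 9.76, 9.12 and 9.56, against 8.25, 8.50, 8.26 and 8.52 in BWm livers and 8.52, 8.75, 8.33, 8.10 and 8.47 in Sham AL livers. Replicate 3 of the RYGB group lay below all 4 BWm livers while replicates 1, 4, 5 and 6 lay above every sham liver, and the differences were log2 0.64 ± 0.23 (adjusted p = 0.12) against BWm and log2 0.59 ± 0.22 (adjusted p = 0.22) against Sham AL. Without RYGB replicate 3 Derl3 was called against BWm (adjusted p = 0.016). Edem2, one of the mannosidase-like proteins that trim glycans of failed chains, rose by log2 0.64 ± 0.12 (1.55-fold, adjusted p = 0.0029) against BWm, with log2 0.44 ± 0.11 (adjusted p = 0.064) against Sham AL, which was called without RYGB replicate 5 (adjusted p = 0.04). Edem1, Edem3, the lectin gene Os9 and Herpud1, a scaffold of the HRD1 complex, were not called in any comparison, and their log2 differences in RYGB against BWm were 0.22, 0.18, 0.05 and 0.11. Herpud1 had log2 signals of 10.83, 11.15 and 11.28 in RYGB, 11.20, 10.94, 10.99 and 10.89 in BWm and 11.06, 11.11, 11.09, 11.10 and 11.14 in Sham AL livers, which overlapped throughout.

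In the reported fit, genes of the sensor list, Xbp1 included, rose against BWm livers in 3 of 4 cases and against Sham AL livers in 0 of 4. Against Sham AL all 4 had an unadjusted p under 0.05 in limma. The methods' analysis of variance called 0 of them there, but it also asks for a fold of at least 1.5. The 4 genes differed by only 1.18-fold to 1.42-fold, so that threshold alone fixed its result. The array reads gene-level RNA, so splicing of Xbp1, cleavage of ATF6 and phosphorylation of PERK and IRE1 were not measured. Xbp1 had log2 signals of 9.04, 9.20 and 9.36 in RYGB, 8.43, 8.36, 8.79 and 8.76 in BWm and 9.11, 9.16, 8.79, 8.91 and 8.83 in Sham AL livers. RYGB livers lay above all BWm livers and overlapped Sham AL livers. RYGB against BWm gave a rise of log2 0.62 ± 0.12 (1.53-fold, adjusted p = 0.0028), with log2 0.24 ± 0.11 (adjusted p = 0.35) against Sham AL and log2 -0.37 ± 0.12 (adjusted p = 0.11) in BWm against Sham AL. Atf6 had log2 signals of 9.18, 9.40 and 9.58 in RYGB, 8.90, 9.01, 8.92 and 8.56 in BWm and 8.99, 9.02, 8.97, 8.64 and 9.02 in Sham AL livers. RYGB livers lay above all sham livers, yet only the difference from BWm was called (log2 0.52 ± 0.12, 1.43-fold, adjusted p = 0.011), with log2 0.44 ± 0.11 (adjusted p = 0.062) against Sham AL and log2 -0.08 ± 0.12 (adjusted p = 0.82) between the sham groups. Eif2ak3, which encodes PERK, had log2 signals of 6.33, 6.63 and 6.93 in RYGB, 6.11, 5.80, 6.10 and 5.54 in BWm and 6.12, 6.06, 6.06, 6.08 and 6.23 in Sham AL livers. Its RYGB livers also lay above all sham livers. Eif2ak3 rose by log2 0.73 ± 0.13 (1.66-fold, adjusted p = 0.0022) against BWm, and against Sham AL it lay just outside the threshold at log2 0.51 ± 0.12 (adjusted p = 0.051). Ern1, which encodes IRE1, had log2 signals of 7.98, 8.17 and 8.32 in RYGB, 7.91, 7.96, 8.11 and 7.61 in BWm and 7.95, 7.82, 7.77, 7.77 and 7.63 in Sham AL livers. RYGB livers lay above all Sham AL livers and overlapped BWm livers, and the differences were log2 0.27 ± 0.11 (adjusted p = 0.17) against BWm and log2 0.38 ± 0.10 (adjusted p = 0.077) against Sham AL. Against Sham AL, Atf6 and Eif2ak3 were called without RYGB replicate 1 or BWm replicate 4, and Eif2ak3 also without RYGB replicate 5 (smallest adjusted p = 0.044 and 0.025). With a block for animal number Atf6 was called too (adjusted p = 0.043). Among genes with a mean of at least 5 in a group, Atf6, Ern1 (adjusted p in limma = 0.03) and Eif2ak3 were called against Sham AL. Of the 14 alternatives other than leaving out 1 array, Eif2ak3 was called there in 7, Atf6 in 3 and Ern1 in 1.

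By role, chaperones had a median log2 difference of 0.79 in RYGB against BWm, 0.34 in RYGB against Sham AL and -0.52 in BWm against Sham AL. For disulfide enzymes these medians were 0.70, 0.21 and -0.47. Degradation genes gave 0.43, 0.28 and -0.12, and the 4 sensors gave 0.57, 0.41 and -0.15. In RYGB against Sham AL the sensor median was the highest of the 4 roles, while in the contrasts with BWm livers the chaperone median was farthest from 0. Differences between roles were not tested.

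**Figure D4:**
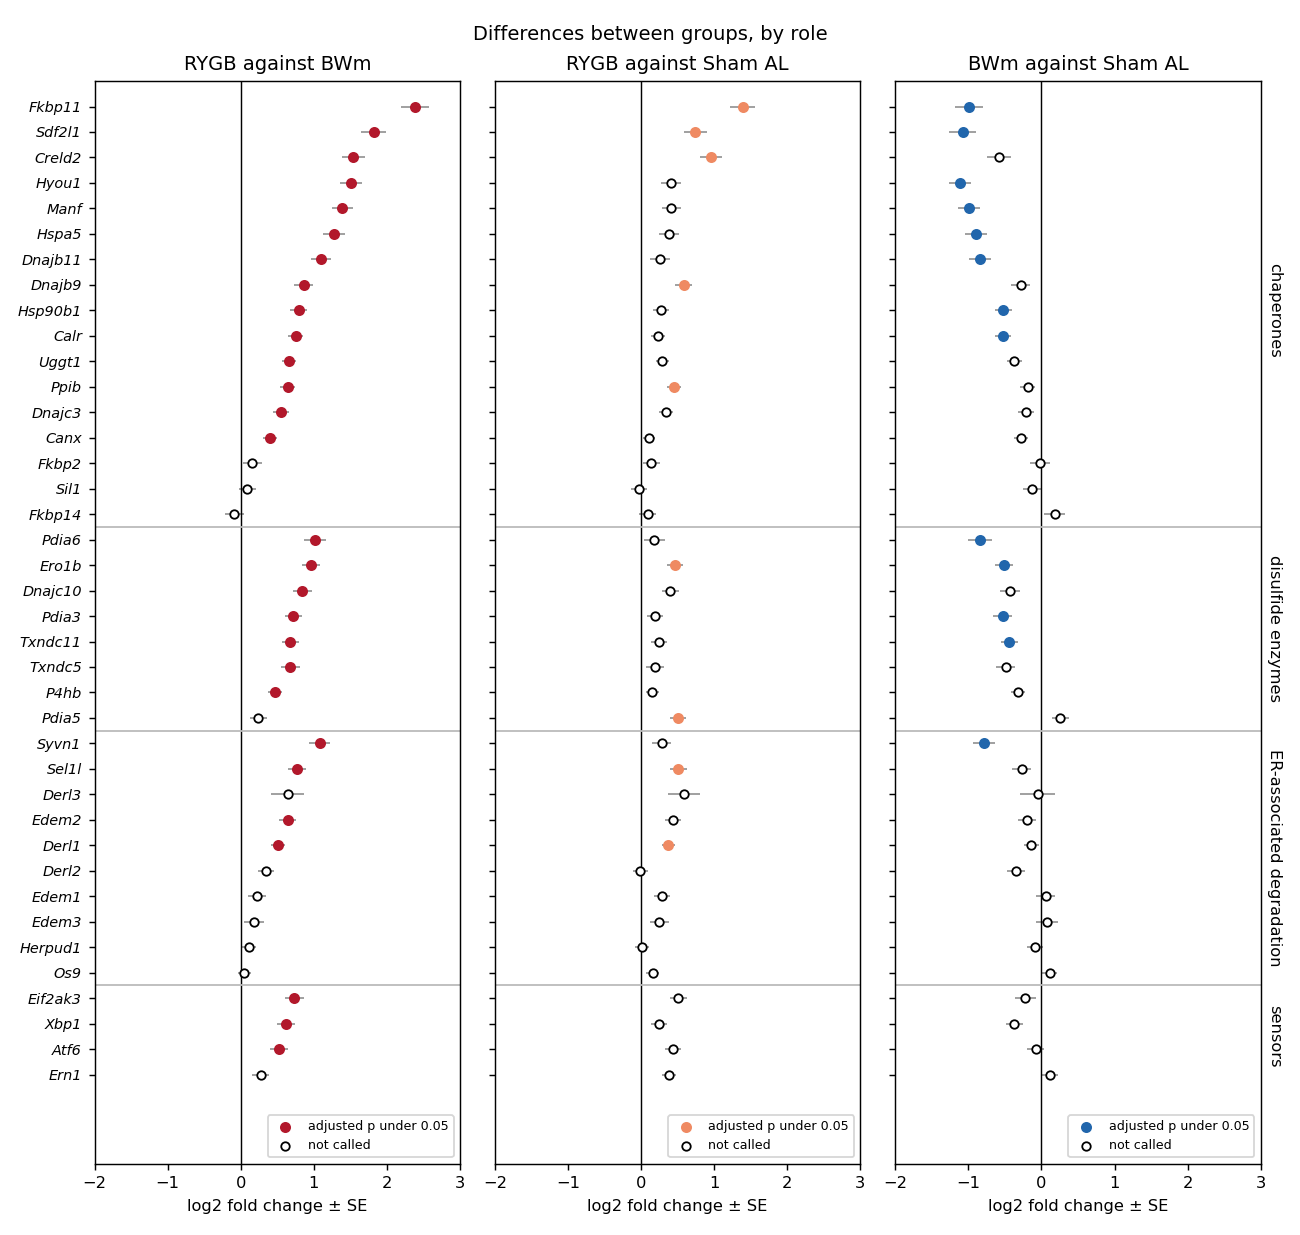
Log2 fold change with SE (horizontal axis) of the 39 genes, by role, for RYGB against BWm, RYGB against Sham AL and BWm against Sham AL. Filled points have an adjusted p under 0.05. Filled points number 28, 9 and 13, all to the right of 0 in the first pair of panels and all to the left in the last.

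Sorted by calls in the reported fit, the members fell into 6 patterns. Sdf2l1, Fkbp11 and Ero1b (3 genes) were called in every comparison. Dnajb9, Creld2, Ppib, Sel1l and Derl1 (5 genes) were higher after bypass than in either sham group with no call between the shams. Pdia5 alone was higher than in Sham AL livers only. A set of 10 genes, Hspa5, Hsp90b1, Hyou1, Dnajb11, Manf, Calr, Pdia3, Pdia6, Txndc11 and Syvn1, was lower in BWm livers than in both other groups, without a call between RYGB and Sham AL. The 10 genes Dnajc3, Canx, Uggt1, P4hb, Txndc5, Dnajc10, Edem2, Xbp1, Atf6 and Eif2ak3 were called in RYGB against BWm only. Another 10, Sil1, Fkbp2, Fkbp14, Herpud1, Edem1, Edem3, Derl2, Derl3, Os9 and Ern1, were called nowhere. A missed threshold does not show that a gene did not differ.

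The 10 members with an ERSE match can be set beside the 24 with a window and no ERSE match. Those 24 include the ERSE-II genes Dnajb11 and Herpud1 and the UPRE genes Txndc5 and Txndc11. Of the 10, 9 rose in RYGB against BWm, 2 rose in RYGB against Sham AL and 6 fell in BWm against Sham AL, with median log2 differences of 0.87, 0.31 and -0.52. Of the 24, 15, 6 and 5 did so, with medians of 0.64, 0.27 and -0.27. Fkbp11 and Sdf2l1, among the members with the largest differences, hold the short core and no full element in the window. Herpud1, with ERSE-II 52 bases before its start, was called nowhere, and Dnajb11, whose ERSE-II match lies 8 bases after its start, was called in both contrasts with BWm livers. Both UPRE genes, Txndc5 and Txndc11, rose in RYGB against BWm.

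Livers of 1 group differed among themselves in a shared way. The mean deviation of the 39 genes from their means over all arrays was 0.15 to 0.41 in the 6 RYGB livers, -0.20, -0.49, -0.46 and -0.49 in BWm replicates 1 to 4 and -0.14 to 0.06 in the 5 Sham AL livers, where the same mean over all genes stayed between -0.02 and 0.03. The ranges of the 3 groups did not overlap. RYGB replicate 1 was the lowest of its group for 22 members, BWm replicate 1 the highest of its group for 27, and Sham AL replicate 5 the highest of its group for 22. The same counts were not made over all genes, so they cannot show whether this is particular to the members. The descriptions also give each animal a number whose meaning is not stated, under 50 for 3 RYGB, 0 BWm and 1 Sham AL mice and above 60 for the others. Within the RYGB group, the 3 livers with high numbers lay above the 3 with low numbers for 13 members, which 5.95% of all genes did, and below them for 1, Os9, which 6.56% did. Hspa5 averaged 9.67 in the livers with high numbers and 9.18 in those with low numbers, Syvn1 9.29 and 8.82, and Derl3 9.48 and 8.57. With animals numbered above 60 alone, a fit chosen after seeing the data, 28 members rose against BWm, 3 rose against Sham AL and 10 fell in BWm against Sham AL, and Derl3 then rose against Sham AL (log2 1.07, adjusted p = 0.0097) and against BWm (log2 1.10, adjusted p = 0.003), where Canx was no longer called (adjusted p = 0.057). The 3 genes called against Sham AL in that fit were Fkbp11, Creld2 and Derl3. With a block for animal number the counts were 29, 9 and 15, and the genes called were not all the same. In RYGB against Sham AL, Sel1l lost its call under that block (log2 0.49, adjusted p = 0.061) and Atf6 gained one (log2 0.48, adjusted p = 0.043). Derl3 was added in RYGB against BWm (adjusted p = 0.017), and Creld2 and Dnajc10 were added in BWm against Sham AL (adjusted p = 0.049 and 0.045). The part of animal number in the results was not otherwise tested.

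Genes that serve the same route outside the 40 were read from lists chosen with earlier results of these data known. Of 23 translocon and signal peptidase genes, which bring new chains into the ER, 13 rose in RYGB against BWm, 0 rose in RYGB against Sham AL, where 10 had an unadjusted p under 0.05, and 5 fell in BWm against Sham AL. Ssr2, a subunit of the translocon-associated complex, gave log2 0.78 ± 0.10 (1.72-fold, adjusted p = 1.4e-04) against BWm, Sec61a1, the channel itself, log2 0.78 ± 0.10 (1.72-fold, adjusted p = 1.8e-04), and Tram1 log2 0.66 ± 0.10 (1.58-fold, adjusted p = 4.4e-04). Of 20 N-glycosylation genes, 11 rose against BWm, 1 (Ddost, a subunit of the oligosaccharyltransferase) rose against Sham AL by log2 0.50 ± 0.09 (1.42-fold, adjusted p = 0.0072) and 7 fell in BWm against Sham AL. Gfpt1, the first enzyme of hexosamine synthesis, had log2 signals of 6.82, 7.37 and 7.48 in RYGB, 6.23, 5.96, 5.82 and 5.76 in BWm and 6.55, 6.67, 6.68, 6.81 and 7.13 in Sham AL livers. BWm livers lay below all others here, too. Gfpt1 rose by log2 1.33 ± 0.14 (2.52-fold, adjusted p = 3.3e-05) against BWm and was log2 -0.82 ± 0.15 (1.77-fold lower, adjusted p = 0.0047) in BWm against Sham AL. The oligosaccharyltransferase subunit Ostc gave log2 1.15 ± 0.13 (2.22-fold, adjusted p = 7.4e-05) and log2 -0.85 ± 0.14 (1.80-fold lower, adjusted p = 0.0025) in the same contrasts. The median difference was 0.50 in RYGB against BWm for each of these lists.

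**Figure D5:**
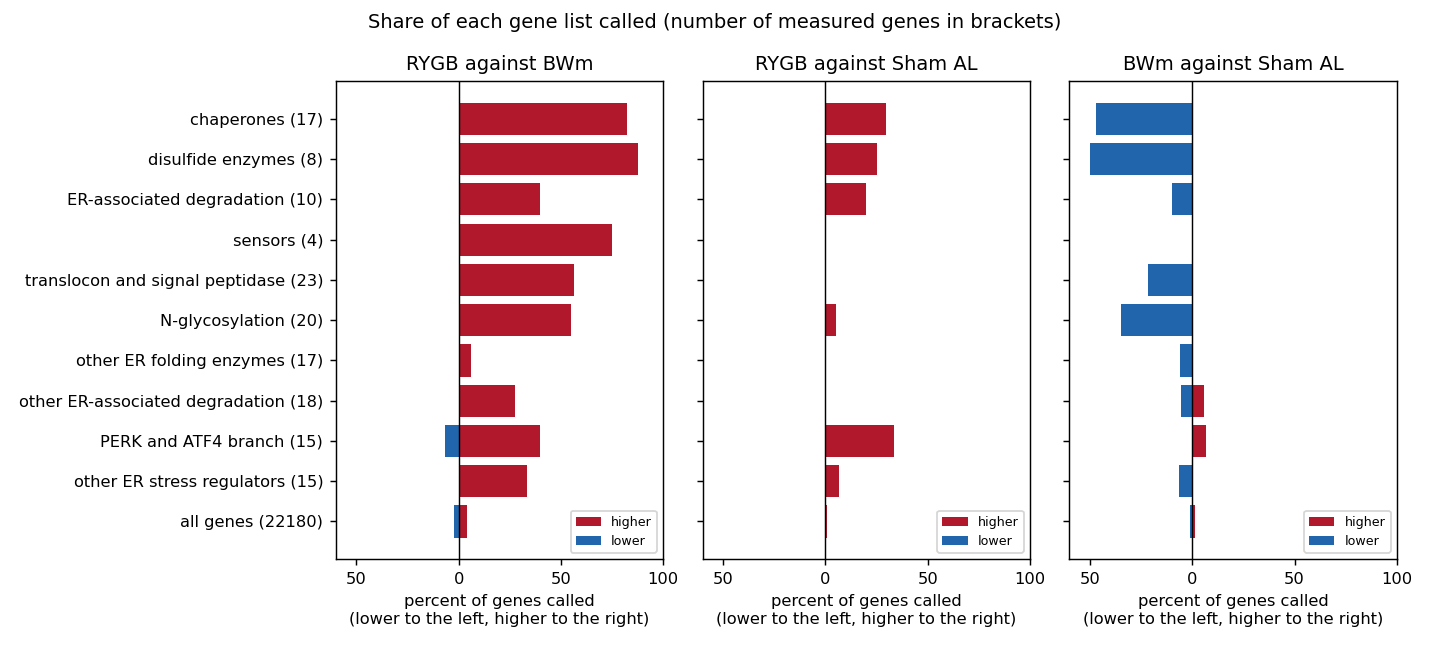
Percent of measured genes called higher (red, to the right) and lower (blue, to the left) in each list, for RYGB against BWm, RYGB against Sham AL and BWm against Sham AL, with all 22180 genes as the bottom bar. Bars for chaperones and disulfide enzymes are longest in both contrasts that involve BWm livers.

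Of 17 further folding enzymes, 1 (the thioredoxin-related membrane protein gene Tmx2) rose in RYGB against BWm by log2 0.51 ± 0.12 (1.43-fold, adjusted p = 0.016) and was log2 -0.65 ± 0.13 (1.56-fold lower, adjusted p = 0.01) in BWm against Sham AL, and 0 were called in RYGB against Sham AL, where 4 had an unadjusted p under 0.05. Of 18 further degradation genes, 5 rose against BWm, led by Ubxn4 (log2 0.77 ± 0.10, 1.70-fold, adjusted p = 2.5e-04) and Selenos (log2 0.97 ± 0.16, 1.96-fold, adjusted p = 8.1e-04), both of which recruit the ATPase p97 to the ER, and 0 were called against Sham AL, where 7 had an unadjusted p under 0.05. In BWm against Sham AL, Ubxn4 fell and the ubiquitin ligase gene Marchf6 rose. Of 15 other regulators, 5 rose against BWm, 1 rose against Sham AL, where 5 had an unadjusted p under 0.05, and 1 fell in BWm against Sham AL. Wfs1, the ER membrane protein wolframin, led the first count at log2 1.07 ± 0.13 (2.10-fold, adjusted p = 1.2e-04) and was the gene that fell (log2 -0.69 ± 0.14, 1.61-fold lower, adjusted p = 0.01), and the second was Mbtps2 (log2 0.56 ± 0.10, 1.48-fold, adjusted p = 0.009), a protease that cleaves ATF6.

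The PERK and ATF4 branch was the list with the most calls against Sham AL outside the members, at 5 of 15, with 6 higher and 1 lower against BWm. Ddit3, which encodes the transcription factor CHOP, had log2 signals of 6.68, 7.23 and 8.63 in RYGB livers, against 6.29, 5.49, 5.42 and 5.29 in BWm livers and 5.71, 5.69, 6.0, 6.15 and 6.50 in Sham AL livers. All RYGB livers lay above all sham livers. It rose by log2 1.78 ± 0.29 (3.44-fold, adjusted p = 8.4e-04) against BWm and log2 1.40 ± 0.27 (2.64-fold, adjusted p = 0.013) against Sham AL, with log2 -0.39 ± 0.30 (adjusted p = 0.6) between the sham groups. Atf3, Trib3 and Nupr1, further genes of that branch, also rose in both bypass comparisons, and their differences in BWm against Sham AL were log2 -0.32 ± 0.26 (adjusted p = 0.62), log2 -0.13 ± 0.25 (adjusted p = 0.86) and log2 -0.82 ± 0.33 (adjusted p = 0.21). In this branch 0 of 15 genes fell in BWm against Sham AL and 1, the phosphatase subunit gene Ppp1r15b, rose (log2 0.47 ± 0.11, 1.39-fold, adjusted p = 0.03). By comparison 8 of 17 chaperones fell in the same contrast. Its median log2 difference was 0.1 over this branch and -0.52 over the chaperones. The SE was 0.25 to 0.33 for Ddit3, Atf3, Trib3 and Nupr1 and 0.11 to 0.19 for the chaperones that fell. A difference of equal size therefore passed the test less readily in Ddit3, Atf3, Trib3 and Nupr1, which limits the comparison of counts. The difference between these lists was not tested.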

How the data were processed

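RNA from 15 livers was read on as many GeneChip Mouse Gene 2.0 ST arrays. The deposited values are log2 signals, which the authors made with the RMA algorithm (Affymetrix Expression Console 1.4.1.46) over all arrays, per the design text. Their own calls, made in Transcriptome Analysis Console 3.1.0.5 with a one-way analysis of variance, a p-value threshold of 0.05 and a fold change of at least 1.5, were not used here. Groups were taken from the labels. Arrays have no depth; precision is limited by their number (median SE over genes 0.135 in RYGB against BWm, 0.127 in RYGB against Sham AL, 0.14 in BWm against Sham AL). Scanner files were not used here.

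Of 41345 transcript clusters, 23521 carried 1 symbol, 1814 several and 16010 none in the platform annotation. For 1082 genes with more than 1 cluster the brightest over all arrays was kept, leaving 22180 genes. The 3 contrasts came from 1 limma 3.58.1 fit (R 4.3.3, lmFit and eBayes, 12 residual and 5.85 prior degrees of freedom) over 15 arrays, two-sided, with Benjamini-Hochberg adjustment over all genes, and the scripts were checked on simulated data. Replicates are separate animals per the titles. Tables and figures used Python 3.11.15, pandas 2.3.3 and matplotlib 3.10.9. Members and all other gene lists were chosen with earlier results of these data known. Named genes are all members and, in other lists, those with the 4 smallest p among the called genes of a comparison. Of 115 other pathway genes 108 were measured, as were 92 of 100 cell markers, which also covered B cells, neutrophils, stellate cells, cholangiocytes, adrenal cortex and brown fat. The brown fat list had 2 genes lower in each bypass comparison and 1 higher and 1 lower in BWm against Sham AL, where 1 endothelial gene was higher. In B cell, neutrophil, stellate, cholangiocyte and adrenal lists 0 genes were called in any comparison (0 to 4 per list at an unadjusted p under 0.05), while 1 hepatocyte gene (Cps1) was higher in BWm than in Sham AL livers. Hm13 was measured under the symbol H13. Promoter sequences are from RefSeq on GRCm38.p6; the build behind the arrays' annotation is not given in the sources used here. Alternatives were another gene summary, all clusters, a filter on level, 2 rescalings, fits on the compared groups, other variance priors, array weights, blocks, the methods' test and leaving out each array.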

Additional observations from a re-analysis of the deposited data

Results flagged for a closer look

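Within groups, 9 of the 117 combinations of gene and group tested held a liver far from the others by Dixon's criterion, which chance alone meets in about 1 of 20. BWm replicate 1 was high for 3 chaperones. Hsp90b1 was at 11.34 there against 10.87 to 10.91 in the other BWm livers, Dnajb11 at 7.75 against 7.15 to 7.24, and Manf at 4.68 against 4.07 to 4.16. Fkbp14, a prolyl isomerase, was at 5.54 in RYGB replicate 3 against 4.74 to 4.92 in the other RYGB livers and at 4.97 in Sham AL replicate 1 against 4.82 to 4.86. Os9 was at 9.45 in RYGB replicate 5 against 9.68 to 9.75. In Sham AL livers, Dnajc10 was at 7.80 in replicate 5 against 7.21 to 7.38, Derl1 at 9.02 in replicate 5 against 9.20 to 9.27, and Atf6 at 8.64 in replicate 4 against 8.97 to 9.02. The cause was not tested.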

How the results depend on the processing

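Over 29 alternatives, no called member changed direction, and the sign turned in 39 values that were not called. In RYGB against BWm the 28 calls stayed within 23 to 29, at 28 to 29 when 1 array was left out. In RYGB against Sham AL the 9 calls became 2 over all transcript clusters, 3 with the replicate block, 3 by the methods' one-way analysis of variance with p below 0.05 and a fold of at least 1.5, 2 by that test after adjustment, 3 with animals numbered above 60 only (chosen after seeing the data), and 3 to 11 when 1 array was left out. In BWm against Sham AL the 13 calls became 20 with a filter on level, 8 with the replicate block, 8 by the methods' test with the fold threshold, 1 by that test after adjustment, and 8 to 15 when 1 array was left out. The causes were not tested. Members called under every alternative numbered 23, 2 and 1 in RYGB against BWm, RYGB against Sham AL and BWm against Sham AL. Calls over all genes moved by over 1.5 times as follows. In RYGB against BWm 1411 became 903 with the replicate block, 857 and 833 by the methods' test with the fold threshold and after adjustment, and 930 without BWm replicate 3. In RYGB against Sham AL 306 became 169 over all clusters, 466 with the level filter, 174 with the block, 54 by the adjusted methods' test, and 144 to 200 when Sham AL replicate 2 or either of RYGB replicates 4 and 6 was left out. In BWm against Sham AL 629 became 1049 with the level filter, 325 with the block, 90 by the adjusted methods' test, and 284 to 382 when Sham AL replicate 2 or either of BWm replicates 2 and 3 was left out. The titles number the replicates and do not state that equal numbers pair animals of different groups. The 13 same-numbered pairs had correlations of deviations from -0.17 to 0.19, with 4 over 0.1. Pairs with unequal numbers were not compared, so these values cannot decide whether animals were paired. The block results (25, 3 and 8 member calls) are given only in this section. Signal over background was not measured, which limits dim genes such as Manf and Fkbp14.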
